A study of Homo sapiens with 18 samples.

Results

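HK-2 cells given CsA for 48 h were compared with HK-2 cells given the matching control for 48 h, across 10717 genes. The comparison rests on 6 of the 18 arrays of the study, 3 with CsA and 3 controls, taken as pairs by the biological replicate number in their labels. The other 12 arrays hold CsA and control cells at 12 h and 24 h, with 3 arrays in each of the 6 groups, and they entered the fit so that all arrays shared 1 estimate of the spread. The study looked for expression signatures of kidney toxicity.

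HK-2 is an immortalized line of human proximal tubule epithelium, so every culture came from 1 line. All groups were grown in the same DMEM and Ham's F12 mixture with EGF, hydrocortisone, insulin, transferrin and selenite, and all arrays carry the same laboratory number. Cells were plated a day before treatment and treated when nearly confluent. CsA is the usual abbreviation of cyclosporin A, which the labels do not spell out. Its dose and the name of the control vehicle are not given in the sources used here.

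Cyclosporin A is an immunosuppressant whose use is limited by damage to the kidney, where proximal tubule cells are among those affected. It binds cyclophilins, enzymes that help proteins fold, and the complex with cyclophilin A inhibits calcineurin, the phosphatase that switches on NFAT transcription factors. Cyclophilin B, the product of PPIB, sits in the endoplasmic reticulum (ER). Secreted and membrane proteins enter the ER through a translocon, lose their signal peptide, receive N-glycans and disulfide bonds, and leave in COPII vesicles, while COPI vesicles bring escaped residents back. DNA replication begins when origins are licensed by the MCM helicase, and many of its genes are switched on in late G1 by E2F transcription factors.

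Values are GCRMA signals on the log2 scale, on which most probe sets sit at a common low background, and a gene entered the test when its highest group mean was at least 4. A probe set is called at background here when it lies below 4. A gene was called when its adjusted p from limma, with the replicate number as a block, was under 0.05. Array medians lay between 2.858 and 2.924, and 38.24% to 39.13% of probe sets reached 4. Replicate 3 stood apart at 48 h: over genes, the SD of the difference between 2 CsA arrays was 0.741 and 0.646 when 1 of them was replicate 3 and 0.429 otherwise, and between 2 control arrays 0.741, 0.632 and 0.494. The CsA minus control differences of the 3 pairs correlated over genes at 0.588, 0.602 and 0.573. RNA quality was gauged by 3-prime minus 5-prime control probe sets, which differed between CsA and control by 0.047 for ACTB (two-sided exact permutation p = 0.9) and by -0.047 for GAPDH (exact p = 0.8), where 3 arrays against 3 cannot give an exact p below 0.1.

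Of 13 renal epithelial markers on the array, 9 reached 4 in a 48 h group (KRT8, KRT18, KRT19, KRT7, PAX8, CDH6, CDH2, DPP4 and ITGB8), and PAX2, ANPEP, MME and GGT1 stayed at background. None of 7 endothelial, 6 leukocyte and 7 distal nephron markers reached 4. Of 8 fibroblast markers, COL1A1, COL3A1, DCN and LUM did so while COL1A2, PDGFRA, PDGFRB and THY1 were at background. The mean over the fibroblast markers was 4.63 to 5.08 in CsA arrays and 5.01 to 5.44 in control arrays. Of 5 podocyte markers, PODXL, SYNPO and PTPRO reached 4, while NPHS1 and WT1 were at background. The mean over the podocyte markers was 5.38 to 5.43 in CsA arrays and 5.38 to 5.51 in control arrays. The part of such cells in any result was not tested. Values are averages over a culture, so fewer cells of a kind and less RNA per cell cannot be told apart.

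At 48 h, 514 genes were higher with CsA (4.8% of those tested) and 639 were lower (5.96%), or 10.8% in either direction. Genes that rose had a median log2 difference of 0.59, with 64 of them at 2-fold or more and 5 at 4-fold or more. Genes that fell had a median of -0.78, with 191 at 2-fold or more and 13 at 4-fold or more. The difference was under 1.5-fold for 251 of the rising and 174 of the falling genes. All 3 pairs had the same sign for 511 of the rising and 637 of the falling genes. Values of the groups did not overlap for 342 of the rising and 307 of the falling genes; over all genes, 8.25% had every CsA array above every control array and 6.77% had every CsA array below. The median difference over all genes was 0.0 and 50.2% of genes were positive.

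**Figure D1:**
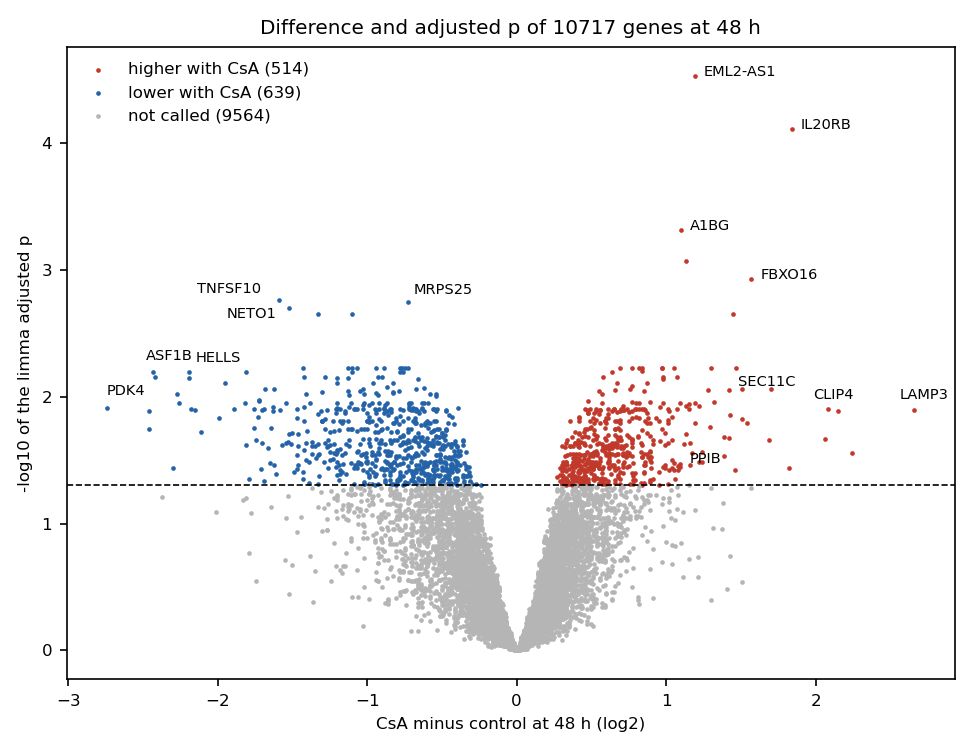
Each point is 1 of 10717 genes, with the log2 difference of CsA minus control at 48 h on the horizontal axis and -log10 of the limma adjusted p on the vertical axis; the dashed line is an adjusted p of 0.05. The 514 called rises (red) reach 2.66 for LAMP3, and the 639 called falls (blue) reach -2.74 for PDK4.

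How many genes were called depended on the form of the block and on single arrays. Without the replicate block, 23 genes rose and 24 fell (0.439% of genes called). With the block fitted separately within each time, 1394 rose and 1747 fell (29.3%), and these held all 514 and all 639 genes. The 6 arrays of 48 h on their own, with the block, gave 300 and 524, of which 215 and 357 were among the 514 and 639. Leaving out CsA replicate 2 left 21 and 44 genes, leaving out control replicate 1 left 58 and 76, and leaving out CsA replicate 3 left 299 and 343, whereas leaving out CsA replicate 1 gave 671 and 1018. Leaving out a whole replicate number from all groups gave 92 and 220 (replicate 1), 9 and 5 (replicate 2), and 68 and 30 (replicate 3). Of the 168 called genes among those chosen for naming, 143 lost the call without CsA replicate 2, 127 without control replicate 1, 65 without CsA replicate 3, and 8 to 30 without 1 of the other arrays. Without the block 147 lost it. The sign changed for 0 of the 168, but the form of the block could not alter it.

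**Figure D2:**
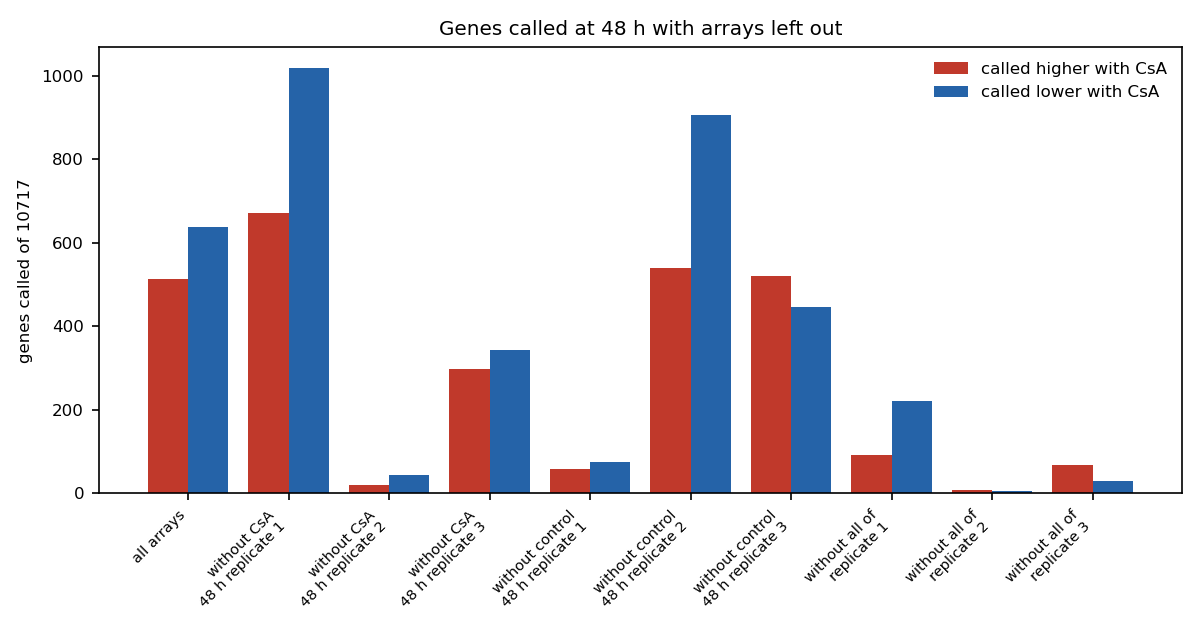
Bars give the number of genes called higher (red) and lower (blue) with CsA at 48 h, with all arrays and with arrays left out as named on the horizontal axis. Without CsA replicate 2 the counts are 21 and 44, and without CsA replicate 1 they are 671 and 1018, against 514 and 639 with all arrays.

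The largest fall was that of PDK4, the kinase that switches off pyruvate dehydrogenase. Its values were 9.57, 8.47 and 7.89 in CsA replicates 1, 2 and 3, against 12.01, 10.97 and 11.17 in the controls. All 3 CsA arrays lay below all controls, and the log2 difference was -2.74 ± 0.52 (SE; adjusted p = 0.0122), a 6.68-fold fall.

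ASF1B, a chaperone that hands newly made histones to replicating DNA, followed the same pattern. It was at 6.77, 4.22 and 5.37 in CsA arrays and at 8.3, 7.31 and 8.05 in controls, with no overlap and a log2 difference of -2.43 ± 0.38 (adjusted p = 0.00638). BRIP1, a helicase that works with BRCA1, was at 5.58, 2.72 and 4.89 with CsA and at 7.59, 5.75 and 7.23 in controls (-2.46 ± 0.49, adjusted p = 0.0129). CsA replicate 2 held the lowest value of both genes and had fallen to background for BRIP1.

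UHRF1, which recognises half-methylated DNA behind the replication fork, fell by 2.27 on the log2 scale, and HELLS, a chromatin remodeller of the same process, fell by 2.19. HELLS was at 8.63, 6.83 and 7.1 with CsA and at 10.47, 9.15 and 9.52 in controls, again with no overlap (adjusted p = 0.00638). RRM2, the small subunit of ribonucleotide reductase, was at 11.56, 8.91 and 10.65 with CsA and at 13.01, 11.62 and 12.46 in controls, and its CsA arrays lay below all controls (-1.99 ± 0.41, adjusted p = 0.0147).

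Other large falls concerned epithelial and metabolic genes. DEFB1, an antimicrobial defensin of epithelia, was at 8.32, 5.7 and 4.86 with CsA and at 9.79, 8.32 and 8.13 in controls (-2.46 ± 0.54, adjusted p = 0.0178), and CsA replicate 1 overlapped the lower controls. CLDN2, the cation pore of proximal tubule tight junctions, was at 8.33, 6.19 and 3.45 with CsA and at 8.77, 8.84 and 6.04 in controls (-1.89 ± 0.36, adjusted p = 0.0125). SLC6A13, a GABA and taurine transporter, was at 9.24, 7.55 and 3.46 with CsA and at 11.02, 9.58 and 6.1 in controls (-2.15 ± 0.42). Levels of CLDN2 and SLC6A13 were lowest in replicate 3 of both groups, so the groups overlapped. CsA was the lower array of every pair, as the rule that named the largest falls required.

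The same rule also named BRI3BP (-2.42 ± 0.38), BCO2, an enzyme that cleaves carotenoids (-2.3 ± 0.63), RIBC2 (-2.18 ± 0.42), NAPEPLD, which makes N-acylethanolamines (-2.11 ± 0.47), TAGLN3 (-1.82 ± 0.34) and TM4SF1 (-1.81 ± 0.43). CCM2L, MCM10, BLM, TIAM1 and B4GALT6 were called lower with a CsA mean under 4, where the size of a fall is not resolved. Another probe set had the opposite sign for NAPEPLD, MCM10 and, among genes described with their lists or with the largest rises, CIMAP1B, ATP5F1C, CDH6, CTSC, TEAD1, TEAD2 and HNRNPA2B1.

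Genes of DNA replication and repair were mostly lower with CsA. Of 132 tested genes in 5 lists of this machinery, 115 had a negative difference, 71 were called lower (53.8%, against 5.96% of all genes) and 1 was called higher; the median was -0.67, against 0.0 over all genes. The median was between -0.54 and -0.77 with any 1 array of 48 h left out, but the count of falls was 9 without CsA replicate 2, 12 without control replicate 1 and 46 without CsA replicate 3. Without the block 7 of them were called, with the block within each time 86, and without replicate 1, 2 or 3 in every group 24, 4 and 0.

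Origin licensing had the lowest median of the 5 lists. Of 25 tested genes of the MCM helicase and its loaders, 17 were called lower and 0 higher, with a median of -1.08. The helicase subunits MCM2 to MCM7 are all in the list, and those called were MCM2 (-1.3), MCM3 (-1.21), MCM4 (-1.76), MCM5 (-1.38), MCM6 (-1.47) and MCM7 (-0.71). ORC1, a subunit of the origin recognition complex, was at 5.87, 4.09 and 5.52 with CsA and at 7.03, 6.34 and 6.97 in controls, without overlap (-1.62 ± 0.27, adjusted p = 0.00861). The loading factor CDT1 (-1.64) and the GINS subunit GINS2 (-1.69) fell, whereas ORC2, ORC3, ORC4 and ORC5 were between -0.18 and 0.13 and were not called. CDC6, another loading factor, was at 0.4 and not called.

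Among 32 polymerase, clamp and clamp loader genes, 19 were called lower and 0 higher (median -0.73). PCNA, the sliding clamp, was at 12.06, 10.84 and 11.06 with CsA and at 13.04, 12.2 and 12.52 in controls, so the highest CsA array lay just below the lowest control (-1.27 ± 0.25, adjusted p = 0.0126). Also called were DSCC1, part of an alternative clamp loader (-1.81), POLE2, a subunit of polymerase epsilon (-1.72), and POLA1, the catalytic subunit of polymerase alpha (-1.13). The primase genes PRIM1 (-0.57) and PRIM2 (-0.67) and the flap nuclease FEN1 (-0.45) were not called.

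Of 27 genes of deoxynucleotide synthesis, 10 were called lower and 1 higher (median -0.26). Besides RRM2, those called lower included TK1 (-1.39), the thymidine kinase, TYMS (-1.31 ± 0.26, adjusted p = 0.013), the thymidylate synthase, CTPS1 (-0.83 ± 0.14), which makes CTP, and DTYMK (-0.45 ± 0.09), the thymidylate kinase. The 1 that rose was IMPDH1, the first enzyme of guanine nucleotide synthesis, by 0.46 ± 0.12 (adjusted p = 0.0344). Genes of the earlier purine steps, PAICS (-0.12), PPAT (-0.21), GART (-0.19) and ATIC (-0.13), were not called.

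Chromatin assembly and repair were the other two lists. Of 23 genes for histone chaperones and chromatin assembly, 13 were called lower and 0 higher (median -0.51), among them DNMT1, the maintenance DNA methyltransferase (-0.96 ± 0.16, adjusted p = 0.00778). Of 25 genes of homologous recombination and the Fanconi pathway, 12 were called lower and 0 higher (median -0.58), among them BARD1, the partner of BRCA1 (-1.21 ± 0.24), and UBE2T, the ubiquitin-conjugating enzyme of the Fanconi pathway (-0.94 ± 0.19). Of 10 tested histone genes 1 was called lower (10.0%, against 5.96% of all genes), H2AX (-0.63 ± 0.16), whose groups overlapped.

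E2F factors bind short sites near the starts of many of these genes, so the region from 250 bases before to 50 bases after the gene start was searched in RefSeq promoters (GRCh38.p14) for TTTGGCGC, TTTCGCGC, TTTGGCGG or TTTCCCGC on both strands. Such a site lay in 27 of the 62 promoters that could be matched among the 71 called-lower replication and repair genes (43.5%), in 12.6% of all called-lower genes, in 4.09% of called-higher genes and in 5.88% of all tested genes. Over all 27305 promoters in the table the share was 3.43%. A match is a description of these letters and not a measured binding site. The lists were made of replication and repair genes, many of them E2F targets, and their uncalled members were not counted apart. The share therefore cannot be tied to the fall with CsA. HELLS and MCM10 are shown because they were among the replication and repair genes with the smallest adjusted p whose promoters hold a site. The HELLS promoter is chr10:94545538-94545837 on the plus strand and the MCM10 promoter chr10:13161308-13161607 on the plus strand, printed 5′ to 3′ with the sites in capitals.
HELLS: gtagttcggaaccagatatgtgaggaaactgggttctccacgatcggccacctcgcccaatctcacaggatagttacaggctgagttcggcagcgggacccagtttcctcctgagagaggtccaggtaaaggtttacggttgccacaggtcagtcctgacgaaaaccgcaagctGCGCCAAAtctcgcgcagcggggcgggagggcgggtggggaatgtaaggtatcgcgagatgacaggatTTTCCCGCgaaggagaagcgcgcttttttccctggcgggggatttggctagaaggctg
MCM10: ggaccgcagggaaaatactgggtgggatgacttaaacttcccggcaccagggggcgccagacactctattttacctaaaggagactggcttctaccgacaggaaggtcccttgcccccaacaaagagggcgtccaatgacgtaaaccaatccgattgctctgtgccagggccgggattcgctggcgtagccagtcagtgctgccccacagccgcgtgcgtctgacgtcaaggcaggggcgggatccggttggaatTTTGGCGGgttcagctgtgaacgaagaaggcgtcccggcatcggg

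The HELLS promoter holds a site that begins 76 bases before the gene start, read on the minus strand, and a site that begins 8 bases before it, read on the plus strand. The site of MCM10, a replication initiation factor, begins 5 bases after the gene start. MCM10 was at 2.99, 2.68 and 3.71 with CsA, all at background, and at 6.08, 4.25 and 5.62 in controls.

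Of 59 tested mitosis and spindle genes, 59 had a negative difference, 38 were called lower (64.4%, against 5.96% of all genes) and 0 were called higher, with a median of -0.89. The median was between -0.51 and -1.06 with any 1 array of 48 h left out. The count of falls was 1 without CsA replicate 2, 1 without control replicate 1 and 19 without control replicate 3. Without the block 0 of them were called, against 54 with the block within each time, and without replicate 1, 2 or 3 in every group 7, 0 and 0.

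MKI67, the proliferation antigen Ki-67, was at 8.84, 7.54 and 9.63 with CsA and at 9.76, 9.23 and 10.33 in controls (-1.1 ± 0.24, adjusted p = 0.0179). Each CsA array lay below its own control, and the groups overlapped because replicate 3 was high in both. KIF4A, a motor of the chromosome arms (-0.89), SMC2, a condensin subunit (-0.69), and MYBL2, a transcription factor of the mitotic programme (-1.02), also fell. ESPL1, the protease separase, was the lowest of the called genes of this list at -1.5. The mitotic kinase CDK1 (-1.02) and its cyclin CCNB1 (-0.59) fell, whereas CCNA2 (-0.73), PLK1 (-0.2) and CDC20 (-0.45) were not called. Of the promoters of called mitotic genes, 18.2% held an E2F site, and uncalled mitotic genes were not counted apart.

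Of 25 genes of E2F factors, pocket proteins and G1 cyclins, 7 were called lower (28.0%, against 5.96% of all genes) and 0 higher (median -0.23). Without the block 0 were called lower, and with arrays left out 0 to 8. CCNE1, a cyclin of the G1 to S transition, was at 4.77, 4.32 and 4.32 with CsA and at 5.97, 5.36 and 5.97 in controls (-1.3 ± 0.28, adjusted p = 0.0156), with no overlap. Its relative CCNE2 (-1.7), their partner CDK2 (-0.99), E2F1 (-0.94) and E2F8 (-1.57) also fell, whereas RB1 (-0.23), CDK4 (-0.07), CDK6 (-0.15) and MYC (-0.44, adjusted p = 0.0628) were not called. Values of the groups overlapped for CCNE2 and CDK2. CCND1 was at 5.1, 4.6 and 4.27 with CsA and at 6.04, 4.28 and 5.05 in controls, and was not called.

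CDKN1A, the CDK inhibitor p21, rose. Its values were 9.65, 10.47 and 10.47 with CsA and 8.54, 9.43 and 9.59 in controls, so the lowest CsA array lay just above the highest control (1.01 ± 0.21, adjusted p = 0.0152). It was the 1 gene called higher of 26 CDK inhibitor and p53 target genes, while FAS, a death receptor (-0.86 ± 0.21), and TP53I3 (-0.49 ± 0.12) were called lower. These were 3.85% and 7.69% of the list, against 4.8% and 5.96% of all genes. MDM2 (0.26), GADD45A (0.54), SESN1 (0.54) and BAX (0.01), other p53 targets, were not called.

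**Figure D3:**
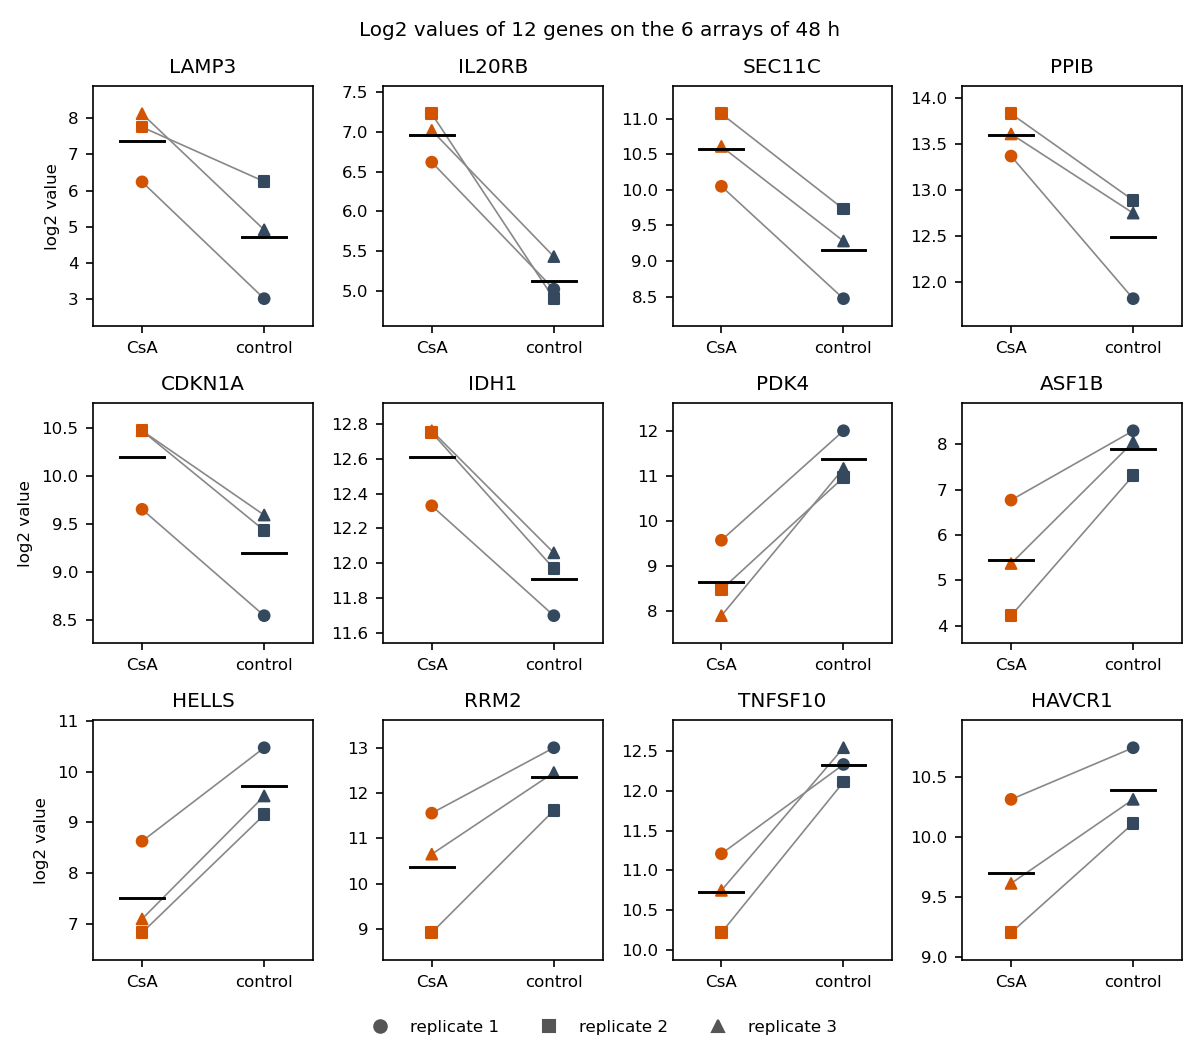
Log2 values of 12 genes on the 6 arrays of 48 h, with CsA on the left and control on the right of each panel; symbols mark the replicate, thin lines join arrays of a pair and short black lines are group means. In every panel the 3 lines run the same way, and LAMP3 and HAVCR1 are the panels whose groups overlap. Genes named for the largest differences were chosen to have 3 pairs of the same sign.

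Genes of the secretory pathway were mostly higher with CsA. Of 134 tested genes in 7 lists of ER folding, translocation, glycosylation, degradation and vesicle transport, 122 had a positive difference, 62 were called higher (46.3%, against 4.8% of all genes) and 0 were called lower; the median was 0.52. The median was between 0.34 and 0.65 with any 1 array of 48 h left out. The count of rises was 2 without CsA replicate 2, 6 without control replicate 1 and 38 without CsA replicate 3. Without the block 1 was called, with the block within each time 99, and without replicate 1, 2 or 3 in every group 14, 2 and 5.

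Of these lists, that of entry into the ER had the highest share of calls. Of 22 genes for the translocon and signal peptide processing, 16 were called higher and 0 lower (median 0.58). SEC11C, a catalytic subunit of signal peptidase, was at 10.05, 11.07 and 10.61 with CsA and at 8.47, 9.73 and 9.28 in controls, with no overlap (1.42 ± 0.24, adjusted p = 0.00882). SEC61A1, the channel of the translocon, rose by 1.13, SEC63, which helps BiP pull proteins through it, by 0.69 ± 0.1, SSR1, of the translocon-associated complex, by 0.77 ± 0.13, and SRP72, of the signal recognition particle, by 0.67 ± 0.11. SEC62 (0.12), SEC11A (0.14), SRP9 (-0.15) and SRP14 (-0.01) were not called.

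Of 20 chaperones of the ER lumen, 20 had a positive difference, 9 were called higher and 0 lower (median 0.67). PPIB, cyclophilin B, was at 13.37, 13.83 and 13.61 with CsA and at 11.82, 12.89 and 12.75 in controls (1.12 ± 0.27, adjusted p = 0.0237). Control replicate 1 was the lowest array, and without it the difference was 0.69 with an adjusted p of 0.0734. The call was also lost without CsA replicate 2 (adjusted p = 0.116), CsA replicate 3 (0.0672), replicate 2 or 3 in every group (0.15 and 0.097), the block (0.0693) or the level filter (0.0605), with differences between 1.02 and 1.24. SIL1, the exchange factor of BiP, rose by 1.04 ± 0.21, LMAN1, a cargo receptor, by 0.87 ± 0.19 and DNAJC10, a reductase and co-chaperone, by 0.67 ± 0.14. HSPA5, which encodes BiP itself, was at 15.29, 15.59 and 15.44 with CsA and at 14.69, 15.12 and 15.26 in controls. Its CsA arrays all lay above the controls, but the difference of 0.42 ± 0.19 was not called (adjusted p = 0.174). HYOU1 (1.02), HSP90B1 (0.67) and CALR (0.51) were not called.

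CANX, the membrane lectin calnexin, rose by 0.56 ± 0.15 (adjusted p = 0.0322), and its promoter is shown because it was the 1 promoter of 30 matched among the called genes of 4 ER lists that held an ER stress element, a CCAAT followed by 9 bases of any kind and CCACG. The search was made on both strands, the element overlaps a CCAAT box by construction, and capitals mark its ends in chr5:179698679-179698978, plus strand, printed 5′ to 3′.
CANX: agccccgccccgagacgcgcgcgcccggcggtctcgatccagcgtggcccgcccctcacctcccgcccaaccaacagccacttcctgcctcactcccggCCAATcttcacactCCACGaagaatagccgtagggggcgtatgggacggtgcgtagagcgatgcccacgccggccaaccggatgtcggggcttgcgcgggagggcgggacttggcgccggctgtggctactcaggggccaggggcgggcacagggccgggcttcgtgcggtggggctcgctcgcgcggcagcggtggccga

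The element begins 151 bases before the CANX start. It was found in 3 of the 440 matched promoters of called-higher genes, in 0 of 523 of called-lower genes and in 0.146% of the promoters of all tested genes (0.0806% of all promoters in the table). A CCAAT box was found in 60.0% of the 30 ER promoters and in 37.4% of all tested ones. It was not particular to the ER genes. Its share was 60.6% for called-lower mitosis genes, 54.8% for called-lower replication and repair genes and 39.1% for all called-higher genes. The sites TGATGCAAT, TGATGAAAC and TGATGTAAT, which pairs of C/EBP and ATF factors bind, lay in 1 of 440 called-higher promoters and in 0.394% of tested ones.

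Of 13 protein disulfide isomerases and ER oxidases, 5 were called higher and 0 lower (median 0.47). ERP44, which retains oxidases in the early secretory pathway, was at 11.73, 12.32 and 12.23 with CsA and at 10.47, 11.67 and 11.36 in controls, with CsA above every control (0.93 ± 0.19, adjusted p = 0.0147). PDIA6 rose by 0.56 ± 0.12 and PRDX4, the ER peroxiredoxin, by 0.47 ± 0.09. Of 18 genes of ER-associated degradation, 5 were called higher and 0 lower (median 0.51), among them SELENOS (0.98 ± 0.16), a selenoprotein of the ER membrane, the lectins OS9 (0.62 ± 0.15) and ERLEC1 (0.75 ± 0.19), and the mannosidase family member EDEM2 (1.02).

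Of 22 genes for the oligosaccharyltransferase and N-glycan synthesis, 11 were called higher and 0 lower (median 0.5). RPN1, a subunit of that transferase, was at 12.25, 12.55 and 12.44 with CsA and at 11.34, 11.8 and 11.73 in controls, with no overlap (0.79 ± 0.15, adjusted p = 0.0125). Its fellow subunits DAD1 (0.75 ± 0.15) and KRTCAP2 (0.46 ± 0.1) also rose. The rises reached the vesicle coats: 8 of 23 COPII and cargo receptor genes were called higher and 0 lower (median 0.4), and 8 of 16 COPI and KDEL retrieval genes were called higher and 0 lower (median 0.53). COPG1, a COPI coat subunit, was at 9.21, 9.24 and 9.57 with CsA and at 7.89, 7.95 and 8.6 in controls (1.19 ± 0.22, adjusted p = 0.0112), without overlap, and the coat subunit COPZ1 (0.58 ± 0.09) and the coat regulator ARFGAP3 (0.46 ± 0.09) rose as well. PREB, the exchange factor that starts COPII assembly, rose by 1.02 ± 0.2, and the cargo receptors TMED2 and TMED10 by 0.61 ± 0.13 and 0.52 ± 0.11.

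Regulators of ER stress were counted apart from the secretory machinery. Of 13 sensors and transcription factors of ER stress, 2 were called higher (15.4%, against 4.8% of all genes), CREB3 (0.62 ± 0.17) and CREB3L2 (0.61 ± 0.18), and 0 lower, with a median of 0.14. XBP1, the transcription factor of the IRE1 arm, was at 0.07 (adjusted p = 0.83). Of 30 ATF4 and CHOP target genes, 1 was called higher (3.33%), the amino acid transporter chain SLC3A2 (1.09 ± 0.29, adjusted p = 0.0356), and 0 lower, with a median of 0.21. ATF4 itself was at 0.35 (adjusted p = 0.128), and DDIT3, which encodes CHOP, was at 12.98, 13.38 and 13.51 with CsA and at 12.11, 13.31 and 13.62 in controls; the groups overlapped and it was not called (0.28 ± 0.48). Of 18 cytoplasmic tRNA synthetase genes, 2 were called higher (11.1%), LARS1 (0.45 ± 0.13) and AIMP1 (0.39 ± 0.11), and 0 lower. Without the block 0 genes of these 3 lists were called.

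Calcium handling genes of the ER included 5 called higher (21.7%, against 4.8% of all genes) and 0 lower of 23 (median 0.22). Without the block 0 were called higher, and with arrays left out 0 to 7. NUCB2, a calcium-binding protein also known as the nesfatin precursor, was at 11.58, 12.62 and 12.09 with CsA and at 10.37, 11.21 and 11.07 in controls, with CsA above every control (1.22 ± 0.32, adjusted p = 0.0324). SELENOM rose by 1.16 ± 0.28 and SELENOK by 0.61 ± 0.16, both selenoproteins of the ER. The pump ATP2A2 (0.32) and the store sensors STIM1 (0.29) and STIM2 (-0.33) were not called.

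Cyclophilin B, whose gene PPIB rose, was counted with the ER chaperones. Of 22 other tested genes of the cyclophilins, calcineurin subunits, NFAT factors and RCAN regulators, 0 were called higher and 1 lower, the spliceosomal cyclophilin PPIL1 (-0.36 ± 0.08, adjusted p = 0.0218), with a median of 0.03. The share called lower was 4.55%, against 5.96% of all genes, and 4.8% of all genes were called higher. PPIA, cyclophilin A, was at 14.73, 14.6 and 14.79 with CsA and at 14.87, 14.93 and 14.87 in controls; each CsA array was below every control, but the difference of -0.18 ± 0.07 was not called (adjusted p = 0.13). RCAN1, a gene that calcineurin and NFAT activate, was at 8.01, 8.51 and 8.1 with CsA and at 8.16, 8.28 and 8.08 in controls (0.03 ± 0.15, adjusted p = 0.92).

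**Figure D4:**
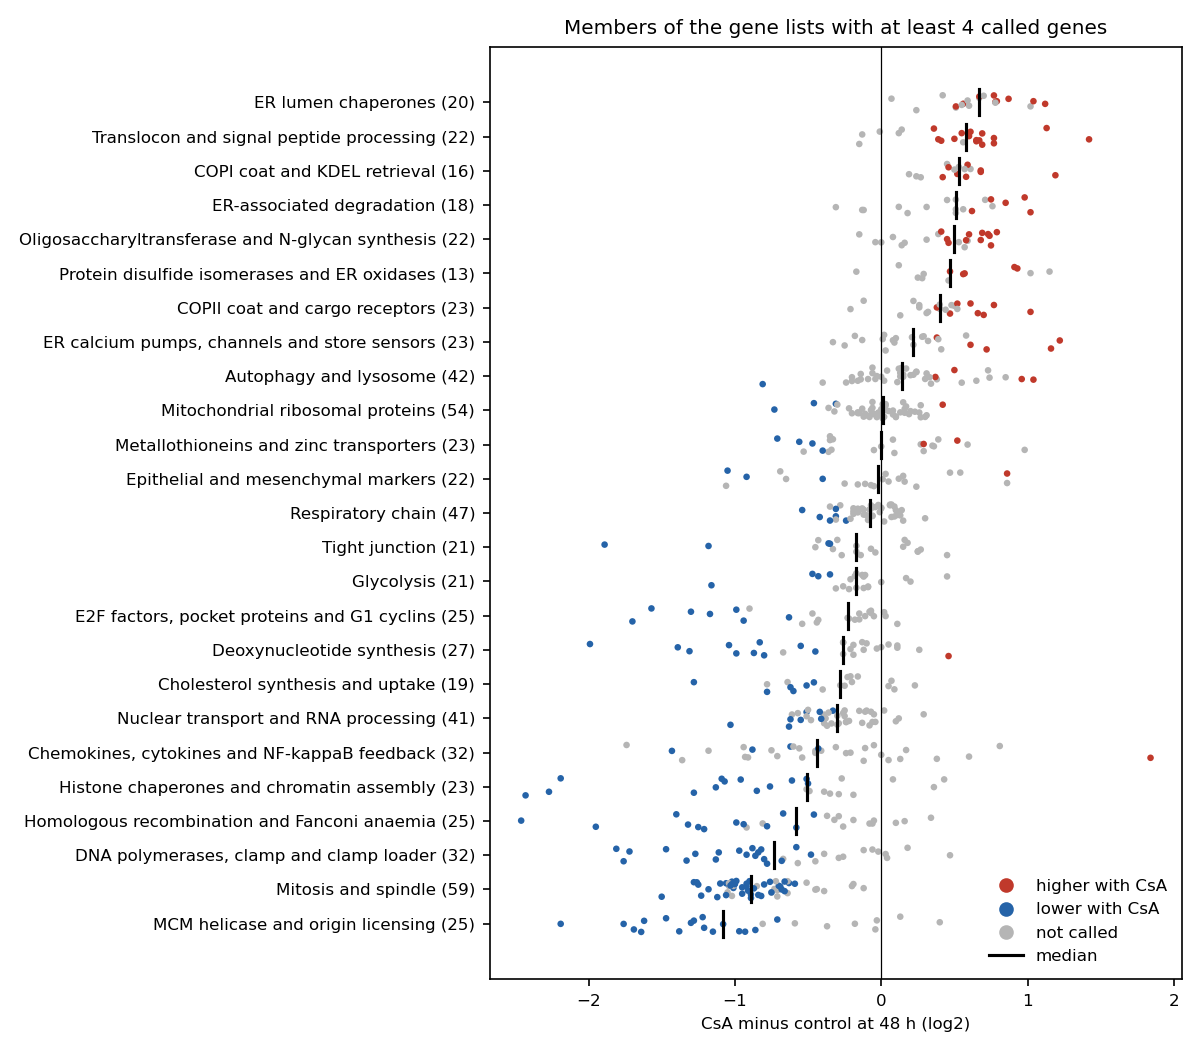
Each point is a tested member of a gene list with at least 4 called genes, placed by its log2 difference of CsA minus control at 48 h; red and blue points were called higher and lower, grey points were not called, black bars are medians, and the number tested is in brackets. Medians run between 0.67 for ER lumen chaperones and -1.08 for the MCM helicase and origin licensing.

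The single largest rise was that of LAMP3, a lysosome-associated membrane protein. It was at 6.24, 7.76 and 8.13 with CsA and at 3.0, 6.25 and 4.91 in controls, where replicate 1 was at background and replicate 2 just above the lowest CsA array (2.66 ± 0.52, adjusted p = 0.0126, 6.3-fold). IL20RB, a chain of the receptors for interleukins of the IL-20 family, was at 6.62, 7.23 and 7.02 with CsA and at 5.02, 4.9 and 5.43 in controls. Its groups were well apart (1.84 ± 0.15, adjusted p = 7.63e-05), and it was called under every alternative tried, as were A1BG and MATN1-AS1 among the 180 named genes.

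CLIP4, a CAP-Gly domain protein, was at 5.76, 7.45 and 6.56 with CsA and at 3.28, 5.7 and 4.53 in controls (2.08 ± 0.4, adjusted p = 0.0125), with the lowest CsA array barely above the highest control. FBXO16, an F-box protein, was at 6.35, 6.67 and 6.27 with CsA and at 4.75, 4.53 and 5.3 in controls (1.57 ± 0.17, adjusted p = 0.00117), well apart. The rule further named SNORC (2.24 ± 0.56), CIMAP1B (2.06 ± 0.48), CARINH (1.82 ± 0.5), BEX5 (1.69 ± 0.39), SYTL1, an adaptor of secretory vesicles (1.54 ± 0.33), C17orf100 (1.51 ± 0.31), TMEM140 (1.51 ± 0.25), CFAP69, a protein of cilia and flagella (1.47 ± 0.21), and ISG20, an interferon-induced nuclease (1.42 ± 0.33). Among these, the groups of SNORC, CIMAP1B and CARINH overlapped. PRPH, PRSS16, LINGO2, RFPL1S and EML2-AS1 were called higher with a control mean under 4, so the size of their rise is not resolved.

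Metabolic lists differed in their share of calls. Of 19 genes of cholesterol synthesis and uptake, 6 were called lower (31.6%, against 5.96% of all genes) and 0 higher (median -0.28). ACAT2, which makes acetoacetyl-CoA for the pathway, was at 9.57, 8.84 and 9.86 with CsA and at 10.83, 10.04 and 11.24 in controls; the CsA arrays lay below all controls (-1.28 ± 0.2, adjusted p = 0.00691). FDPS, the farnesyl diphosphate synthase (-0.6 ± 0.13), and EBP, a sterol isomerase (-0.62 ± 0.11), fell, whereas the regulators of sterol sensing INSIG1 (-0.4) and SCAP (0.07) were not called. Of 19 fatty acid genes, ACLY, which makes cytosolic acetyl-CoA (-0.62 ± 0.18), and ACSL4 (-1.2 ± 0.23) were called lower and the malic enzyme ME1 higher (0.48 ± 0.11). That was 10.5% lower and 5.26% higher, against 5.96% and 4.8% of all genes.

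Of 21 glycolysis genes, 4 were called lower (19.0%) and 0 higher (median -0.17), among them PFKFB3, which makes the activator of phosphofructokinase (-1.16 ± 0.25), PGAM1 (-0.47 ± 0.1) and LDHA (-0.43 ± 0.12). In the TCA cycle list of 23, PDK4 was the 1 call lower (4.35%) and IDH1 the 1 call higher. IDH1, the cytosolic isocitrate dehydrogenase, was at 12.33, 12.75 and 12.76 with CsA and at 11.7, 11.97 and 12.06 in controls, with no overlap (0.71 ± 0.13, adjusted p = 0.0118). Of 47 respiratory chain genes, 6 were called lower (12.8%) and 0 higher, with differences no larger than -0.54 (ATP5MC1) and a median of -0.08; NDUFA2 of complex I (-0.42 ± 0.1) and ATP5F1C of the ATP synthase (-0.31 ± 0.09) were among them. MRPS25, a mitochondrial ribosomal protein, was at 7.94, 7.79 and 7.85 with CsA and at 8.61, 8.47 and 8.69 in controls (-0.73 ± 0.09, adjusted p = 0.00178), while of all 54 genes of its list 3 were called lower (5.56%), with MRPL16 (-0.46 ± 0.1) and MRPL22 (-0.31 ± 0.09), and 1 higher (MRPS10, 0.42 ± 0.09). Without the block 1 TCA cycle gene was called higher, 1 mitochondrial ribosomal gene lower and 0 genes of the other metabolic lists.

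Of 22 tested markers of tubule injury, 0 were called higher and 3 lower (13.6%, against 5.96% of all genes), with a median of -0.41. HAVCR1, which encodes the injury marker KIM-1, was at 10.31, 9.2 and 9.61 with CsA and at 10.74, 10.11 and 10.31 in controls (-0.68 ± 0.14, adjusted p = 0.0147); every CsA array was below its own control, and the highest CsA array lay level with control replicate 3. VCAM1, an adhesion molecule (-1.47 ± 0.4), and CD24 (-1.15 ± 0.29) were the others. LCN2, which encodes the injury marker NGAL, was at 5.62, 7.92 and 12.72 with CsA and at 3.66, 7.73 and 12.42 in controls. It differed far more between replicates than between CsA and control, and was not called (0.82 ± 0.63). HMOX1, the stress-induced haem oxygenase (0.66 ± 0.27, adjusted p = 0.131), and GDF15, a stress cytokine (0.32 ± 0.25), were not called.

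Calls among genes of tubule identity, junctions and matrix varied by list, and without the block there were 0. Of 12 tested proximal tubule genes, 3 were called lower (25%, against 5.96% of all genes) and 0 higher (median -0.71): SLC3A1, of the cystine transporter (-1.37 ± 0.33), CDH6, the cadherin of the proximal tubule (-1.23 ± 0.32), and CA2, a carbonic anhydrase (-0.8 ± 0.18). Of 21 tight junction genes, 4 were called lower (19.0%) and 0 higher, including CLDN1 (-0.35 ± 0.09) and CXADR (-0.36 ± 0.09). Among 22 epithelial and mesenchymal markers, CDH1, E-cadherin, was called higher (0.86 ± 0.17) and CDH16, S100A4 and CDH2 lower (-1.05 ± 0.28, -0.92 ± 0.18 and -0.4 ± 0.11). That was 4.55% higher and 13.6% lower, against 4.8% and 5.96% of all genes. CDH1 was at 9.17, 9.23 and 5.26 with CsA and at 8.46, 8.76 and 3.86 in controls; replicate 3 had much less of it in both groups, and was at background in the control.

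COL4A1, a chain of basement membrane collagen, was at 10.93, 9.72 and 8.44 with CsA and at 11.61, 11.48 and 10.26 in controls (-1.42 ± 0.23, adjusted p = 0.00691), with CsA lower in every pair. It was the 1 call lower of 40 matrix genes (2.5%), and the prolyl hydroxylase P4HA2 the 1 call higher (0.85 ± 0.25). Of 15 matrix proteases and inhibitors, ADAMTS5 (-0.95 ± 0.28) and CTSC (-0.65 ± 0.15) were called lower (13.3%, against 5.96% of all genes). In the TGF-beta list of 31, LTBP2, a binding protein of latent TGF-beta, and SMAD1, a signal transducer of BMPs, were called lower (-1.34 ± 0.35 and -0.34 ± 0.08), and in the YAP and TEAD list of 24, TEAD1 and TEAD2 were (-0.57 ± 0.17 and -0.64 ± 0.14). These calls made up 6.45% and 8.33% of their lists, near the share over all genes.

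TNFSF10, the death ligand TRAIL, was among the most clearly separated falls. It was at 11.21, 10.22 and 10.75 with CsA and at 12.33, 12.11 and 12.54 in controls (-1.59 ± 0.18, adjusted p = 0.00173). The caspases CASP2 (-0.88 ± 0.16) and CASP6 (-0.68 ± 0.17) were the other calls among 26 genes of death receptors and the BCL2 family (11.5% lower, against 5.96% of all genes). EFNB2, a ligand of Eph receptors, was at 6.79, 5.95 and 5.74 with CsA and at 8.18, 7.28 and 7.32 in controls, with no overlap (-1.43 ± 0.2, adjusted p = 0.00588), and EFNA5 fell (-0.75 ± 0.19) while the receptor EPHB1 rose by 0.99 ± 0.27. In the EGF receptor list of 25, DUSP6, which switches off ERK, fell (-1.25 ± 0.3) and the ligand BTC rose (1.16 ± 0.31). That was 4.0% of the list each way, against 5.96% and 4.8% of all genes.

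Of 32 genes of chemokines, cytokines and NF-kappaB feedback, 4 were called lower (12.5%) and IL20RB higher (3.12%), with a median of -0.44. CCL2, a monocyte attractant, was at 4.03, 4.65 and 3.85 with CsA and at 6.39, 6.53 and 3.9 in controls, so that replicate 3 had background values in both groups (-1.43 ± 0.41, adjusted p = 0.0446). IL1B (-0.88 ± 0.22), the inhibitor gene NFKBIE (-0.62 ± 0.16) and the receptor chain OSMR (-0.43 ± 0.1) were the other falls. Of 32 interferon-response genes, ISG20 was called higher and OAS3 lower (-0.87 ± 0.17), or 3.12% each way. Over all genes, 4.8% were called higher and 5.96% lower.

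Lists of drug and metal transporters had calls in both directions, and 0 without the block. ABCB1, the efflux pump P-glycoprotein that carries cyclosporin A, was at 9.05, 8.18 and 9.67 with CsA and at 9.34, 9.44 and 10.6 in controls; it was lower in every pair, and the groups overlapped (-0.83 ± 0.18, adjusted p = 0.0162). CYP1B1, a xenobiotic-metabolising enzyme, fell (-1.65 ± 0.44) and ABCA1, the cholesterol exporter, rose by 0.6 ± 0.14, and these were the calls among 20 genes of that list (10.0% lower and 5.0% higher, against 5.96% and 4.8% of all genes). The metallothioneins MT1M, MT1E, MT1F and MT2A, which share much of their sequence and so may share probe signal, were called lower with differences between -0.71 and -0.4, while the zinc transporters SLC30A5 (0.52 ± 0.12) and SLC39A6 (0.29 ± 0.08) were called higher.

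Among the remaining lists, 8 of 41 nuclear transport and RNA processing genes were called lower and 0 higher (median -0.3), with HNRNPA2B1 (-1.03 ± 0.2), SF3B3 (-0.63 ± 0.12) and RANBP1 (-0.62 ± 0.1) leading by p. Of 42 autophagy and lysosome genes, 4 were called higher (9.52%), including the autophagy factors WIPI1 (1.04 ± 0.27) and ATG13 (0.96 ± 0.22) and the proton pump accessory ATP6AP1 (0.37 ± 0.1), and 1 lower (2.38%), the galactosidase GLA (-0.81 ± 0.17). Of 25 genes in a list of heat shock proteins, HSPA9 (0.66 ± 0.16) and HSPA13 (0.63 ± 0.18) were called higher (8.0%) and 0 lower. Of 29 antioxidant genes, KEAP1 (-0.41 ± 0.1), GSR (-0.48 ± 0.14) and GPX3 (-0.75 ± 0.22) were called lower (10.3%) and 0 higher. Of 43 ribosome biogenesis genes 1 was called lower (2.33%), FBL (-0.36 ± 0.08). Over all genes the shares were 4.8% higher and 5.96% lower. None of 27 proteasome, 13 acute-phase, 18 immediate early, 17 hypoxia and 16 clock genes were called in limma, against 10.8% of all genes called in either direction; 4, 2, 5, 1 and 3 of them had an unadjusted p under 0.05, against 3014 of 10717 genes.

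The difference at 48 h was also set against those at 12 h and 24 h. Over genes, the SD of the CsA minus control difference was 0.16 at 12 h, 0.24 at 24 h and 0.41 at 48 h. By the same limma rule, 0 genes were called at 12 h (259 with an unadjusted p under 0.05) and 1 at 24 h (0.00933% of genes; 1009 unadjusted). Of the 514 genes called higher at 48 h, 74.5% had a positive difference at 12 h and 71.4% at 24 h, against 46.7% and 48.0% of all genes, with medians of 0.09 and 0.11. Of the 639 genes called lower at 48 h, 78.1% were negative at 12 h and 82.5% at 24 h, against 53.3% and 52.0% of all genes, with medians of -0.09 and -0.17. The 3 times have separate control arrays, but share replicate numbers.

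Secretory pathway genes had a median of 0.2 at 12 h, 0.15 at 24 h and 0.52 at 48 h. Replication and repair genes had medians of -0.09 at 12 h, -0.19 at 24 h and -0.67 at 48 h, and mitosis genes -0.18, -0.28 and -0.89. In direct limma tests of the effect at 48 h against that at 24 h or 12 h, 0 genes in the lists of these families were called. ALG14, a gene of N-glycan synthesis that is outside the lists, was called against 24 h. With the block within each time, 29 secretory, 45 replication and repair and 16 mitosis genes were called against 24 h. ATF4 and CHOP target genes ran otherwise, at 0.18, 0.65 and 0.21. The 1 gene called at 24 h, the cystine transporter SLC7A11, was at 0.5 at 12 h, 3.67 ± 0.41 at 24 h (adjusted p = 0.00691) and 0.51 ± 0.41 at 48 h, and HSPA5 was at 1.07, 0.91 and 0.42. TXNIP, a regulator of thioredoxin, was at -0.63, -2.42 and -0.32. The tests of the difference between 48 h and 24 h were not called for SLC7A11 (-3.16 ± 0.58, adjusted p = 0.118), HSPA5 (-0.5 ± 0.27) and TXNIP (2.1 ± 0.58).

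Tested directly, the CsA effect at 48 h differed from that at 24 h for 5 genes (0.0467% of genes; 1438 with an unadjusted p under 0.05) and from that at 12 h for 3 (0.028%; 1317 unadjusted). With the block within each time the counts were 1021 and 727, and without CsA replicate 1 they were 253 and 243. They were 12 and 10 without CsA replicate 3, 15 and 3 without control replicate 2, and 3 and 3 without CsA replicate 2. Without replicate 1, 2 or 3 in every group, 0, 0 and 0 genes differed between 48 h and 24 h, so that all 5 calls were lost, and 4, 0 and 0 between 48 h and 12 h. IL20RB averaged 3.59 ± 0.1 with CsA and 3.49 ± 0.13 in controls at 12 h, 3.58 ± 0.21 and 3.47 ± 0.01 at 24 h, and 6.96 ± 0.31 and 5.12 ± 0.28 at 48 h (SD, n = 3 each). Both groups were at background until 24 h and above it at 48 h, CsA more so, and the effect at 48 h exceeded that at 24 h by 1.73 ± 0.21 (adjusted p = 0.00859) and that at 12 h by 1.74 ± 0.21 (adjusted p = 0.00796).

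A1BG, a plasma glycoprotein of the immunoglobulin family, averaged 6.97 ± 0.27 with CsA and 5.87 ± 0.01 in controls at 48 h (SD, n = 3 each), and lay between 5.78 and 5.89 in the group means of both earlier times. EML2-AS1, an antisense transcript of EML2, averaged 4.01 ± 0.16 with CsA and 2.83 ± 0.03 in controls at 48 h, and was at background in every other group. It entered the test only through its CsA mean at 48 h, so its call is given as a description; with a filter of 5 it was not tested, and the counts were 4 and 2. ALG14, of N-glycan synthesis, changed sign: it was lower with CsA at 24 h (7.54 ± 0.26 against 8.13 ± 0.26 in controls) and higher at 48 h (8.53 ± 0.35 against 7.66 ± 0.24), a change of 1.46 ± 0.2 (adjusted p = 0.0187). NETO1, which assists glutamate receptors in neurons, averaged 4.01 ± 0.39 with CsA and 5.53 ± 0.31 in controls at 48 h, against 6.47 ± 0.42 and 6.27 ± 0.65 at 24 h, a change of -1.72 ± 0.26 (adjusted p = 0.0352).

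**Figure D5:**
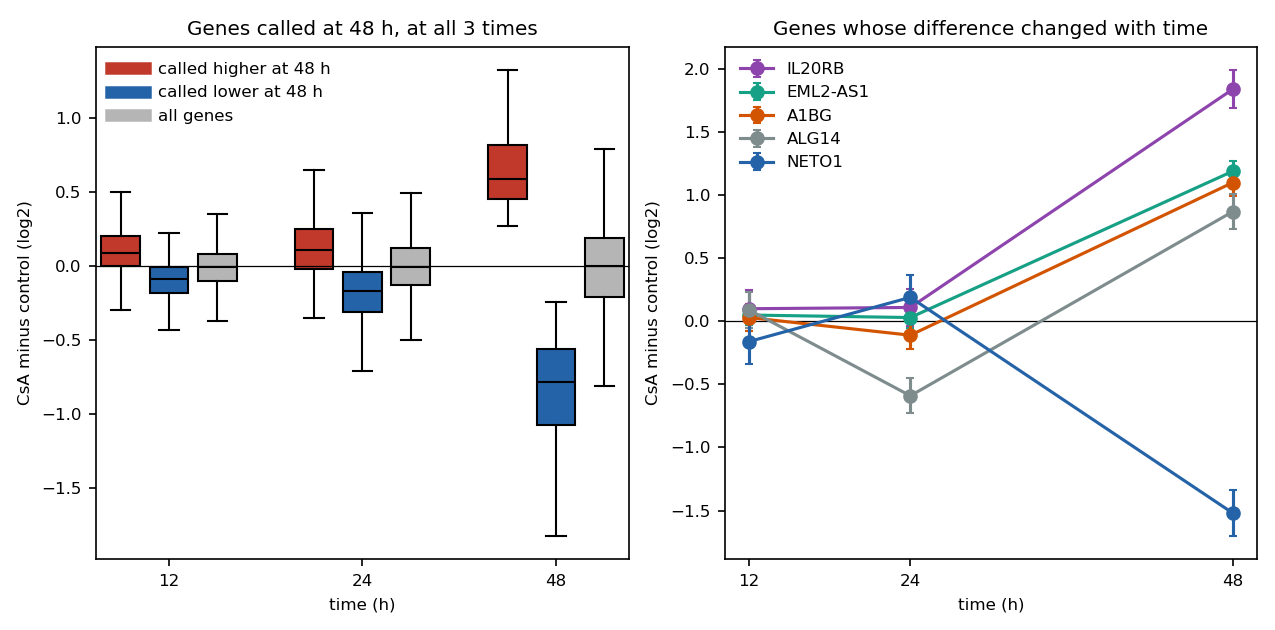
Left, CsA minus control log2 differences at 12, 24 and 48 h of the genes called higher (red) and lower (blue) at 48 h and of all genes (grey), as boxes between the quartiles with medians in black, whiskers by the usual box plot rule and outliers not drawn. Right, the differences of the 5 genes whose effect changed with time, with SE bars; ALG14 crosses zero between 24 h and 48 h.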

How the data were processed

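RNA of 18 HK-2 cultures was hybridised to Affymetrix arrays. The authors deposited 1 table of log2 values made with GCRMA, per the submitters' processing notes, with no version given; the log base was inferred from the range of the values, and the set of arrays normalized as 1 batch is not stated in the labels. GCRMA corrects background, normalizes between arrays and summarizes probe sets, and it compresses differences near background. The number of arrays limits the precision.

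The table held 54675 probe sets, of which 41091 had 1 gene symbol in the platform annotation, 1801 several, 11721 none here and 62 were array controls. Each gene was represented by its brightest single-symbol probe set (by the mean of all arrays), if the highest group mean was at least 4, which left 10717 genes. Groups and replicate numbers came from the sample titles. Two-sided moderated tests of limma 3.58.1, run under R 4.3.3 with the defaults of lmFit and eBayes, were made on all 18 arrays with a term for each of 6 groups and the replicate number as a block, and adjusted by Benjamini-Hochberg over all genes with a threshold of 0.05. Errors given with a difference are standard errors of that fit. The comparison took the arrays as paired by these replicate numbers. At 48 h the deviations from the group means of same-numbered CsA and control arrays correlated at 0.77, 0.546 and 0.82 over genes. Those of differently numbered arrays correlated between -0.693 and 0.159. These correlations come from the same data, and deviations of 3 arrays from their mean are not independent, so they are given as a description. The labels call the replicates biological and do not say how the cultures were kept apart, so p-values measure the spread between these samples. The 3-prime and 5-prime control probe sets were compared with an exact permutation test over samples. Tables and figures used Python 3.11.15, pandas 2.3.3, numpy 2.4.6 and matplotlib 3.10.9. The fit was tested on simulated data. Promoters came from RefSeq (GRCh38.p14), and 8883 of 10717 genes had one.

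The comparison, its members and the 52 gene lists were chosen with earlier results of these data known. In each direction the genes named were the 15 largest called differences with both group means at least 4, the 5 largest with 1 mean under 4, the 3 members of each list with the smallest p in each direction called, up to 5 genes each way that differed between times, and 18 preset genes. The 15 and the 5 were taken among genes whose 3 pair differences had 1 sign. Agreement of the pairs in those genes was therefore fixed by the choice. Other genes named with a value were chosen after their values were seen. Alternatives covered the block, the arrays in the fit, the level filter, the normalization, a floor, the probe set per gene, the variance model and the arrays left out.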

Additional observations from a re-analysis of the deposited data

Results flagged for a closer look

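The CsA effect at 48 h differed from that at 24 h, in a direct limma test of the difference, for IL20RB (by 1.73 on the log2 scale), ALG14 (1.46), A1BG (1.21), EML2-AS1 (1.16) and NETO1 (-1.72). It differed from that at 12 h for IL20RB (1.74), EML2-AS1 (1.14) and A1BG (1.07). Among them, ALG14 and NETO1 lost the call without the replicate block (adjusted p = 0.585 and 0.867 for the 24 h contrast), whereas IL20RB (0.012) and A1BG (0.012) were called there too. EML2-AS1 reached the level filter only through CsA at 48 h, so its call supports nothing. Without replicate 1, 2 or 3 in every group, 0 genes differed between 48 h and 24 h.

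Probe sets without a gene symbol here were not part of the comparison. Of 1668 that reached the same level, 125 were called at 48 h, 33 higher and 92 lower with CsA. For comparison, 9.05% of all 21899 probe sets that reached that level were called. No control group other than the 48 h control applies to these calls.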

How the results depend on the processing

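The 514 rises and 639 falls became 23 and 24 with no replicate block, 1394 and 1747 with the replicate block within each time, and 288 and 322 with no level filter; on the 6 arrays of 48 h alone there were 300 rises, and the falls stayed within 1.5 times. With single arrays or whole replicate numbers left out, rises ranged between 9 and 671 and falls between 5 and 1018. The 5 genes that differed between 48 h and 24 h became 1021 with the replicate block within each time, 3 with no level filter and 0 to 253 with arrays left out. The 3 genes that differed between 48 h and 12 h became 727 with the replicate block within each time and 0 to 243 with arrays left out. The between-time contrasts have no value on the 6 arrays of 48 h alone. Level filters of 3 and 5, quantile normalization, equal medians, a floor of 4, means over probe sets and a trended robust variance kept all 4 counts within 1.5 times. Leaving out arrays leaves fewer samples; the cause of the other shifts was not tested. Among the 180 named genes, 0 of the 168 called ones changed sign under any alternative. Part of that was fixed in advance. The form of the block, the 6 arrays alone and the variance model leave the difference itself as it is. Genes chosen for 3 pairs of 1 sign could not reverse without a whole replicate number. Uncalled named genes such as RCAN1 and DDIT3 had pair differences of both signs, so their sign was not settled. Of the 168 called, 147 lost the call with no replicate block, 0 with the block within each time, 60 on the 6 arrays, 50 with no level filter, and 8 (without CsA replicate 1) to 157 (without replicate 2) with arrays left out; 3 were called under every alternative. The medians of 17 of the 52 lists changed sign under at least 1 alternative. Signals near background limit the size of differences for the 33 called genes with a group mean under 4.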

Other observations

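Genes whose symbols mark antisense, divergent or long intergenic non-coding transcripts were counted after the largest rises had been seen, so the count is a description. Of 209 such genes tested at 48 h, 18 were called higher with CsA (8.61%, against 4.8% of all genes) and 2 lower (0.957%, against 5.96%). Their median log2 difference was 0.05, and 124 were positive. The largest with both group means at least 4 were MATN1-AS1 (1.45), MAP4K3-DT (1.24), and OSER1-DT (1.22), and those called lower were EFCAB13-DT (-1.26) and LINC00294 (-0.76). Without the replicate block 3 were called higher and 0 lower, with the block within each time 29 and 17, and without replicate 3 in every group 9 and 0.

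Of the 514 rises 422 lay outside the lists, and of the 639 falls 447. Most tested genes lay outside them too, since 1297 of 10717 were in a list. Of those 1297 genes, 7.09% were called higher and 14.8% lower, against 4.8% and 5.96% of all genes.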
